A study of Mus musculus with 6 samples.

Results

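The collagen genes of the mouse hippocampus were examined in 3 mice homozygous for the NL-G-F knock-in of App and for a null allele of Mutyh (Mutyh-/-), called NL-G-F•Mutyh mice here, and in 3 wild-type mice. All were females, 6 months of age, with 1 Affymetrix Mouse Gene 2.0 ST array per mouse. The collagen genes were defined as the transcript clusters (the probe groups of this array) annotated with a single gene symbol of the form Col, number, a, number, 1 transcript cluster per gene, that with the highest mean over the 6 arrays where a gene had several. This gave 44 genes among the 41345 transcript clusters of the array, of which 23521 carried 1 symbol. By the type of protein they encode, 11 were fibrillar, 8 were basement membrane collagens and 25 were other collagens. The NL-G-F knock-in gene carries the Swedish, Beyreuther/Iberian and Arctic mutations and a humanized amyloid-beta sequence in mouse App, under the control of its own promoter, and forms amyloid plaques without overexpression. Mutyh encodes a base excision repair enzyme for mispaired adenine, and both of its alleles were disrupted in the NL-G-F•Mutyh mice. These mice differed from wild-type mice in both App and Mutyh, and mice with the NL-G-F alleles and functional Mutyh were not analysed here, so the parts of App and Mutyh cannot be told apart. All mice came from lines on a C57BL/6J background that were kept as separate inbred strains, and the wild-type arrays had also served in an earlier series, so genotype, strain and series cannot be told apart either.

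Collagens are proteins of the extracellular matrix in which chains wind into a triple helix. Fibrillar collagens, such as types I and III, form the fibers of meninges and of the outer coat of large vessels, type IV chains form the network of the basement membrane that surrounds every brain vessel, and the other types link fibers, form beaded filaments or networks, or span the cell membrane. Neural tissue itself contains little fibrillar collagen, and the vessels, the meninges and the choroid plexus are known sources of it in the brain. One transmembrane collagen, encoded by Col25a1, is made by neurons, and its shed part is a component of amyloid plaques.

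The promoter windows of 2 pairs of neighboring genes are shown, since the partners of each pair encode chains that assemble into 1 protein and their signals are compared below. The sequences are from RefSeq (GRCm38.p6), run 5′ to 3′ on the strand of the gene and cover 300 bases around its start, most of them upstream. Col4a1 (chr8:11312777-11313076, minus strand) and Col4a2 (chr8:11312555-11312854, plus strand) lie head to head, and capitals mark the 78 bases that both windows share. The annotated 5′ end of the Col4a1 gene, at 11312889, lies upstream of the start used for its window, so the number of shared bases depends on that start. For Col6a1 (chr10:76725995-76726294, minus strand) and Col6a2 (chr10:76623581-76623880, minus strand), which lie 85.2 kb apart, capitals mark a GC box.
Col4a1: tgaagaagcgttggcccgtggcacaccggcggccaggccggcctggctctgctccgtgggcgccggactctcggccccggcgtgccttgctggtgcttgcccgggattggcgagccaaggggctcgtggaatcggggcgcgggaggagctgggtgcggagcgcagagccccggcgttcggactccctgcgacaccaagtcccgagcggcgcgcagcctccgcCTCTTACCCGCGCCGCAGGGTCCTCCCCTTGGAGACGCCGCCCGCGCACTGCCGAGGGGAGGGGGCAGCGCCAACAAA
Col4a2: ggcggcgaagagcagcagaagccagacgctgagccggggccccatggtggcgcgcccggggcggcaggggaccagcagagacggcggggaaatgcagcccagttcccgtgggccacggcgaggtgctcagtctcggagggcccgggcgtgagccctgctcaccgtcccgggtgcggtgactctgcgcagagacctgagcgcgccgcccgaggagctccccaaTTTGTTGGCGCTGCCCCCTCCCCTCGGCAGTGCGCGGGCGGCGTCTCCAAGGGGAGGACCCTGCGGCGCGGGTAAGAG
Col6a1: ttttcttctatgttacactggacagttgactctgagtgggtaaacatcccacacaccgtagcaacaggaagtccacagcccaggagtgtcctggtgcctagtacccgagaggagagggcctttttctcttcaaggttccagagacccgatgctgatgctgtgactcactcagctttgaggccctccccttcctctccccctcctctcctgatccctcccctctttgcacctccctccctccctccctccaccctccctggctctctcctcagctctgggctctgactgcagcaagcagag
Col6a2: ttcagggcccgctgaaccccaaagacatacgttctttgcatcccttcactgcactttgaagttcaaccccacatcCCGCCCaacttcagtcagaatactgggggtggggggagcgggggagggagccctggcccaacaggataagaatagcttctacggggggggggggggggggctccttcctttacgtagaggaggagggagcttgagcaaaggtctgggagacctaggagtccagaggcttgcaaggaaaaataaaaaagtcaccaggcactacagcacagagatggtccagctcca

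These windows were searched for 3 short motifs on both strands. Windows of 35 of the 44 collagen genes were analysed, 38 in all, and the other 9 genes were not analysed here. The CCAAT box (CCAAT) was present in 34.2% of the collagen windows and in 37.4% of the 32851 windows of all genes, and the TATA box (TATAAA) in 13.2% and 13.6%. The GC box (GGGCGG) was present in 60.5% of the collagen windows and in 35.7% of all windows. The Col4a1 window held 1 CCAAT box and 1 GC box, the Col4a2 window 1 CCAAT box and 3 GC boxes, the Col6a2 window 1 GC box, and the Col6a1 window none of the 3 motifs. These matches are descriptions of the letters and not evidence of binding.

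The values are log2 signals as the authors deposited them, and differences are NL-G-F•Mutyh minus wild-type on that log2 scale. Signals of different probe groups do not compare amounts of transcript between genes. Over all transcript clusters, array medians were between 5.55 and 5.66, and Pearson's r across transcript clusters was 0.988 to 0.989 between NL-G-F•Mutyh arrays, 0.983 to 0.987 between wild-type arrays and 0.983 to 0.986 between the groups. Neuronal markers of the hippocampus were above the intensity minimum given below in every array, with 9.65 to 9.93 for Neurod6, 8.74 to 9.45 for Prox1 of the dentate gyrus and 11.81 to 12.10 for Camk2a. App averaged 11.94 ± 0.12 in NL-G-F•Mutyh mice and 12.06 ± 0.09 in wild-type mice (SD, n = 3 each). Mutyh was at 5.42 ± 0.05 in NL-G-F•Mutyh mice and 5.28 ± 0.17 in wild-type mice, under the intensity minimum in both, and so this probe group is no check of the knockout.

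No collagen gene passed the threshold of an adjusted p under 0.05. An intensity minimum of 50 (5.64 on the log2 scale) in the mean of at least 1 group was set for testing, and 27 of the 44 collagen genes met it, 8 fibrillar, 3 basement membrane and 16 other collagens. Col4a5 met it in NL-G-F•Mutyh mice alone and Col12a1 in wild-type mice alone. Over the whole array, 13 of 21159 tested transcript clusters (0.0614%) passed in limma with Benjamini-Hochberg adjustment, and none of them was a collagen gene, the lowest adjusted p of a collagen gene being 0.246, for Col6a2. At an unadjusted p under 0.05, none of the 27 was higher in NL-G-F•Mutyh mice, against 8.88% of all tested transcript clusters, and 1 was lower, Col6a2, against 4.75%. These shares of all transcript clusters depended on the scaling, with 1878 higher and 1005 lower as deposited and 1032 higher and 1598 lower when each array was centred on its median. The 3 NL-G-F•Mutyh arrays lay above the 3 wild-type arrays for 1 tested collagen gene, Col11a2 (13.9% of all), and below them for 5, Col5a1, Col6a2, Col6a6, Col7a1 and Col25a1 (8.11% of all). Among these genes, Col6a6, Col7a1 and Col11a2 had equal deposited values in some NL-G-F•Mutyh arrays, as described below.

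The differences of the collagen genes were small. Among the 27 tested, 11 were above and 16 below their wild-type means, with a median difference of -0.048, against 0.025 over all tested transcript clusters. The differences ran between -0.32 (Col6a2) and 0.41 (Col8a1), and 25 of the 27 (92.6%) were smaller than 0.25 in size, against 84.0% of all tested transcript clusters. The shares were closer at other limits, with 77.8% against 75.9% at 0.2 and 92.6% against 89.2% at 0.3. The median size was 0.10 for collagen genes and 0.11 for all. The spread within groups was of the same order, with a median within-group SD of 0.14 (0.12 over all tested transcript clusters) and a median standard error of the difference of 0.11. In simulated data, 1 of 100 changes of log2 0.3 was recovered, against 76 of 100 of log2 1. Changes of the smaller size would thus mostly be missed, and the lack of calls does not show that collagen genes were unchanged.

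**Figure D1:**
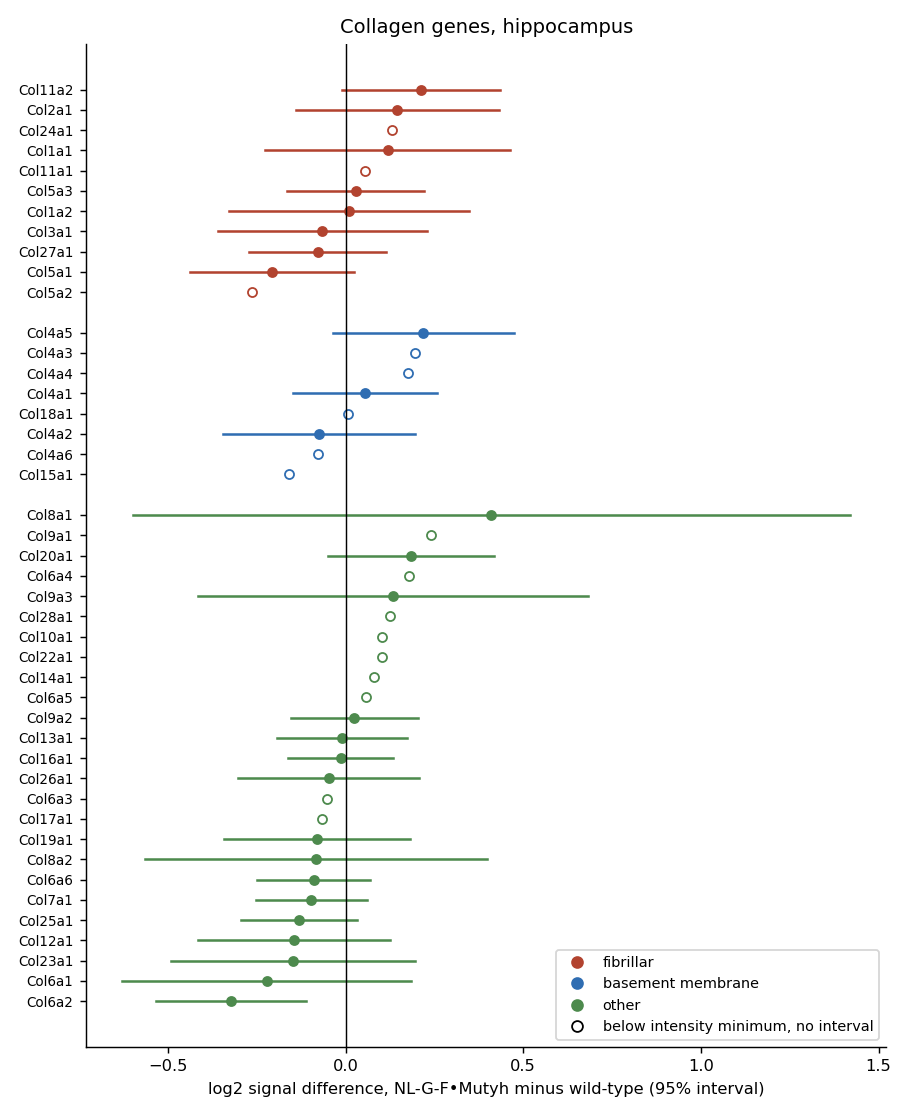
Log2 signal difference (horizontal axis, NL-G-F•Mutyh minus wild-type) of each of the 44 collagen genes, grouped by type and ordered by difference. Filled points with lines are tested genes with limma's 95% interval, open points are genes below the intensity minimum; the interval of Col6a2 alone lies wholly on one side of 0, and that of Col8a1 is the widest.

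**Figure D2:**
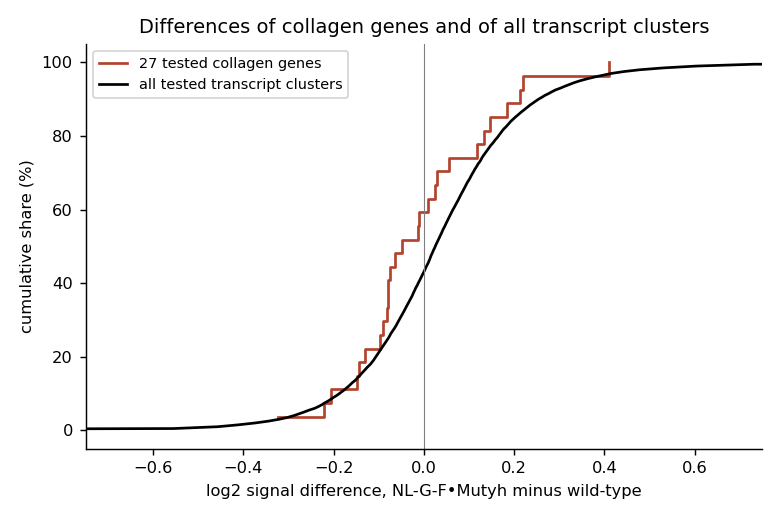
Cumulative share (vertical axis, %) of log2 signal differences (horizontal axis, NL-G-F•Mutyh minus wild-type) for the 27 tested collagen genes and for all tested transcript clusters. The median is -0.048 for the collagen genes and 0.025 for all; differences beyond 0.75 in size, none of them of a collagen gene, lie outside the axis.

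The fibrillar collagen genes lay on both sides of wild-type. Of the 8 tested, 5 were above and 3 below wild-type, with a median difference of 0.02 and a lowest adjusted p of 0.381. The mean over the 8 genes, each set relative to its own mean over the 6 arrays, was 0.04, 0.03 and -0.04 in the NL-G-F•Mutyh arrays and -0.02, -0.05 and 0.04 in the wild-type arrays, a difference of 0.02 ± 0.035 (SE over arrays) as deposited and of -0.029 after centring on array medians. The arrays of both groups overlapped.

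Col1a1 encodes the main chain of type I collagen, the major collagen of meninges. Its log2 signals were 6.86, 7.10 and 6.60 in the NL-G-F•Mutyh arrays and 6.65, 6.63 and 6.93 in the wild-type arrays. The groups overlapped, and the difference was 0.12 (SE 0.15, 95% interval -0.23 to 0.46, adjusted p = 0.741). Col1a2, for the partner chain, had 6.23, 6.24 and 6.10 in the NL-G-F•Mutyh arrays and 5.88, 6.23 and 6.43 in the wild-type arrays. Its difference was 0.01 (SE 0.14, 95% interval -0.33 to 0.35, adjusted p = 0.981), and the wild-type arrays alone spanned the whole range of the NL-G-F•Mutyh arrays. A second Col1a2 transcript cluster, below the minimum, had 4.30, 4.35 and 4.09 in the NL-G-F•Mutyh arrays and 3.96, 4.54 and 5.12 in the wild-type arrays (difference -0.29), so the probe groups of Col1a2 differed in direction. Col3a1, for type III collagen of distensible tissue, had 5.65, 5.69 and 5.80 in the NL-G-F•Mutyh arrays and 5.76, 5.56 and 6.01 in the wild-type arrays. Its difference was -0.065 (SE 0.12, 95% interval -0.36 to 0.23, adjusted p = 0.846). For Col1a2 and Col3a1, the SD among wild-type mice (0.28 and 0.23) exceeded that among NL-G-F•Mutyh mice (0.08 for each).

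Among the minor fibrillar collagens, which nucleate and limit the growth of fibers, Col5a1 and Col11a2 are described because their groups did not overlap, a choice made after their values were seen. Col5a1 had 6.14, 6.06 and 6.16 in the NL-G-F•Mutyh arrays and 6.22, 6.52 and 6.24 in the wild-type arrays. The difference was -0.21 (SE 0.10, 95% interval -0.44 to 0.03, adjusted p = 0.400), and -0.112 without wild-type replicate 2. A second transcript cluster of Col5a1, below the minimum, differed by -0.02. Col11a2 had 6.06, 5.95 and 5.95 in the NL-G-F•Mutyh arrays and 5.94, 5.64 and 5.75 in the wild-type arrays. The lowest NL-G-F•Mutyh arrays and the highest wild-type array were nearly level, and the difference was 0.21 (SE 0.09, 95% interval -0.01 to 0.44, adjusted p = 0.381). The other tested fibrillar genes differed by 0.15 (Col2a1), 0.03 (Col5a3) and -0.08 (Col27a1), with adjusted p from 0.611 to 0.905. Of the 3 fibrillar genes below the minimum, Col5a2, also given after its values were seen, had 5.16, 5.11 and 5.08 in the NL-G-F•Mutyh arrays and 5.34, 5.31 and 5.49 in the wild-type arrays, while Col24a1 (0.13) and Col11a1 (0.06) overlapped between groups.

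None of the 3 tested genes of type IV collagen, the defining collagen of vascular basement membrane, passed the threshold. Col4a1 and Col4a2, which encode the chains of its common form and share the head-to-head promoter shown above, differed in opposite directions. Col4a1 had 6.23, 6.23 and 6.17 in the NL-G-F•Mutyh arrays and 6.27, 6.19 and 6.01 in the wild-type arrays. The groups overlapped, with a difference of 0.055 (SE 0.085, 95% interval -0.15 to 0.26, adjusted p = 0.802). Col4a2 had 6.27, 6.24 and 5.89 in the NL-G-F•Mutyh arrays and 6.24, 6.21 and 6.18 in the wild-type arrays. Its difference of -0.075 (SE 0.11, 95% interval -0.34 to 0.19, adjusted p = 0.795) rested on NL-G-F•Mutyh replicate 3, without which it was 0.048. In both groups, replicate 3 was the lowest array for Col4a1 and for Col4a2.

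Col4a5, for a chain of the form of type IV collagen found in kidney and in smooth muscle, is described after its values were seen. It had 5.96, 5.73 and 5.66 in the NL-G-F•Mutyh arrays and 5.59, 5.43 and 5.67 in the wild-type arrays. The difference was 0.22 (SE 0.11, 95% interval -0.04 to 0.47, adjusted p = 0.415), and wild-type replicate 3 lay above NL-G-F•Mutyh replicate 3. The remaining 5 basement membrane genes were below the minimum. Col18a1, whose protein is the source of endostatin, had 5.55, 5.55 and 5.53 in the NL-G-F•Mutyh arrays and 5.39, 5.55 and 5.68 in the wild-type arrays, a difference of 0.01. Col4a3 (0.195) and Col4a4 (0.175) were higher in each NL-G-F•Mutyh array than in any wild-type array, Col15a1 (-0.16) was lower in each, and Col4a6 (-0.08) overlapped. NL-G-F•Mutyh replicates 2 and 3 had equal values for Col4a4, and all 3 NL-G-F•Mutyh arrays had equal values for Col15a1. The share of transcript clusters below the minimum with separate groups was not counted. The mean of the 3 tested genes, Col4a5 among them, differed by 0.066 ± 0.078 (SE over arrays), at 0.15, 0.06 and -0.10 in the NL-G-F•Mutyh arrays and 0.02, -0.06 and -0.06 in the wild-type arrays. The sign was not stable, as the difference was -0.01 with the minimum required in both groups, which leaves out Col4a5, and -0.01 to 0.135 with 1 array left out, lowest without wild-type replicate 3 and highest without NL-G-F•Mutyh replicate 3.

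Of the other collagens, 4 of the 16 tested were above and 12 below wild-type, with a median difference of -0.08, while over all 25 measured 11 were above and 14 below, with a median of -0.014. Their mean was -0.04, -0.02 and -0.003 in the NL-G-F•Mutyh arrays and -0.07, 0.08 and 0.05 in the wild-type arrays, a difference of -0.04 ± 0.048 (SE over arrays). This mean difference was 0.005 without the intensity minimum and -0.033 with the minimum required in both groups, which leaves out Col12a1. It was -0.086 to -0.005 with 1 array left out, nearest to 0 without wild-type replicate 2 and farthest without wild-type replicate 1. By subtype, the 3 tested type VI genes and the 3 tested transmembrane collagens were all below wild-type (medians -0.22 and -0.13), and the 6 tested FACITs, collagens that sit on the surface of fibers, were evenly divided (median 0.01).

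Type VI collagen forms beaded microfilaments around cells, and its chains are encoded by Col6a1, Col6a2 and Col6a3 in the common form. Col6a2 had the smallest p among the collagen genes, with 5.70, 5.92 and 5.73 in the NL-G-F•Mutyh arrays and 6.18, 6.14 and 6.00 in the wild-type arrays. The NL-G-F•Mutyh mean was 79.9% of the wild-type mean on the linear scale, a difference of -0.32 (SE 0.09, 95% interval -0.54 to -0.11). Its unadjusted p was 0.0087 and its adjusted p 0.246. The groups did not overlap, but the gap between them was smaller than the SD of either (0.12 in NL-G-F•Mutyh mice and 0.09 in wild-type mice). Col6a1 had 6.02, 6.40 and 6.66 in the NL-G-F•Mutyh arrays and 6.49, 6.77 and 6.48 in the wild-type arrays. The groups overlapped, with a difference of -0.22 (SE 0.17, 95% interval -0.63 to 0.18, adjusted p = 0.588) that was -0.053 without NL-G-F•Mutyh replicate 1, -0.127 without wild-type replicate 2 and -0.372 without NL-G-F•Mutyh replicate 3. A second Col6a1 transcript cluster, below the minimum, had 5.07, 5.24 and 5.003 in the NL-G-F•Mutyh arrays and 5.36, 5.67 and 5.52 in the wild-type arrays (difference -0.41). Both probe groups annotated to Col6a1 alone were thus lower in NL-G-F•Mutyh mice, and they disagreed on whether the groups overlap. Another transcript cluster carried the symbols of Col6a1 and of other genes and was not counted as Col6a1. It was above the minimum and overlapped between groups (difference -0.29, adjusted p = 0.388). Col6a3, below the minimum, differed by -0.05. The mean over the 3 chains was -0.24, -0.04 and -0.02 in the NL-G-F•Mutyh arrays and 0.09, 0.15 and 0.06 in the wild-type arrays, a difference of -0.20 ± 0.07 (SE over arrays), or -0.13 without NL-G-F•Mutyh replicate 1. This set of 3 was not among the types set for comparison. It holds Col6a2, which had the smallest p, and Col6a3, which was below the minimum. Over all 6 measured type VI genes, 2 were above and 4 below wild-type, with a median difference of -0.07. Col6a6, an alternative chain chosen after its values were seen, had 5.79, 5.86 and 5.86 in the NL-G-F•Mutyh arrays and 5.95, 5.96 and 5.87 in the wild-type arrays (difference -0.09, SE 0.07, adjusted p = 0.575). Col6a4 (0.18) and Col6a5 (0.06) were below the minimum.

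**Figure D3:**
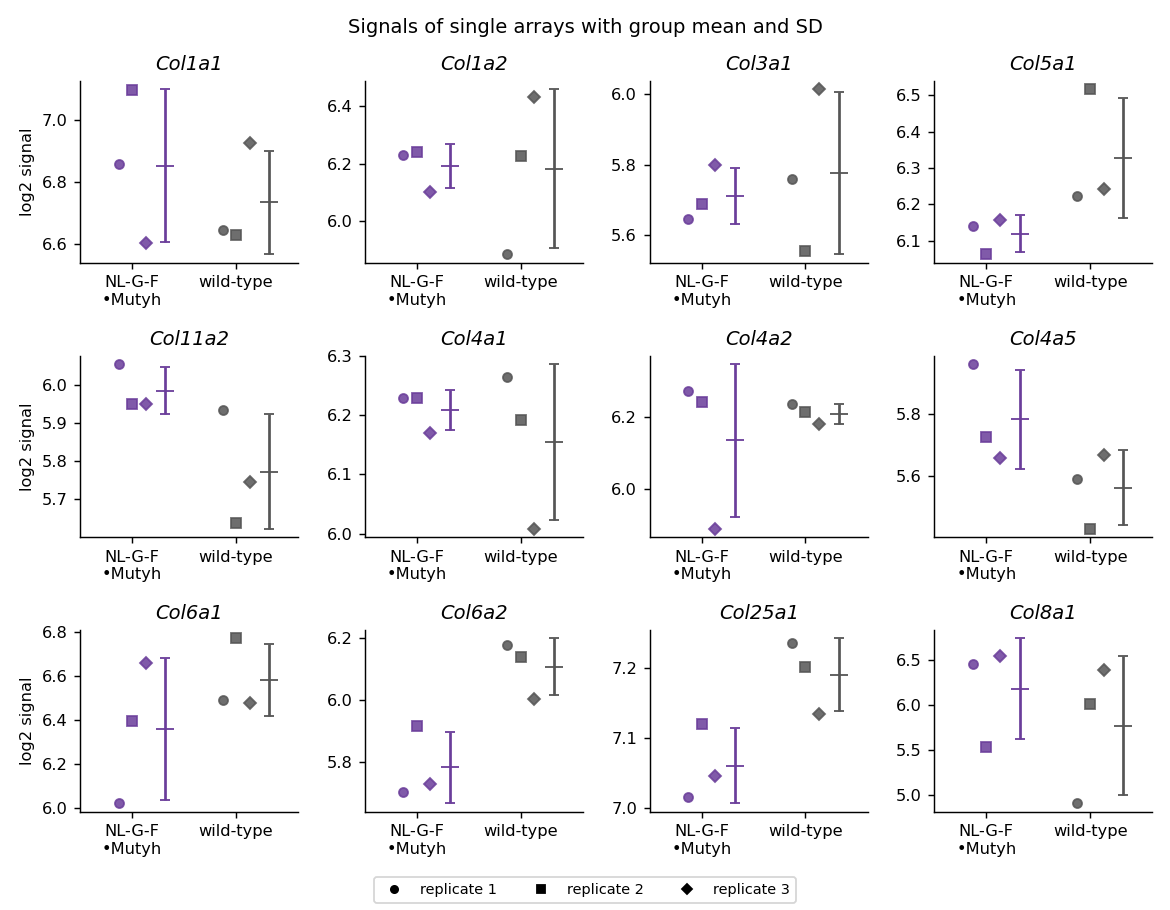
Log2 signal (vertical axis, a separate range in each panel) of 12 collagen genes in the 3 NL-G-F•Mutyh arrays and the 3 wild-type arrays; symbols mark the replicate number, and the bar beside each group is its mean with SD. The groups are separate for Col6a2, Col5a1, Col11a2 and Col25a1 and overlap for the other 8, most widely for Col8a1.

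Col25a1, the gene of the plaque-associated collagen, had 7.02, 7.12 and 7.05 in the NL-G-F•Mutyh arrays and 7.24, 7.20 and 7.13 in the wild-type arrays. The groups were separate by a margin smaller than the SD within either (0.05 for each), and the difference was -0.13 (SE 0.07, 95% interval -0.29 to 0.03, adjusted p = 0.443). Beside this neuronal gene, the mean of 6 markers of hippocampal neurons was 0.14, 0.10 and -0.04 in the NL-G-F•Mutyh arrays and 0.01, -0.12 and -0.09 in the wild-type arrays, and none of these markers had an unadjusted p under 0.05 (smallest for Neurod6, adjusted p = 0.400). The other transmembrane collagens differed by -0.15 (Col23a1), -0.01 (Col13a1) and -0.065 (Col17a1, below the minimum). Col7a1, for the anchoring fibrils below epithelia and chosen after its values were seen, had 5.72, 5.72 and 5.72 in the NL-G-F•Mutyh arrays and 5.78, 5.79 and 5.88 in the wild-type arrays (difference -0.10, SE 0.07, adjusted p = 0.540). Among the FACITs, Col9a2, for a chain of type IX collagen, had 7.17, 7.28 and 7.18 in the NL-G-F•Mutyh arrays and 7.10, 7.26 and 7.21 in the wild-type arrays. Its difference was 0.024 (SE 0.075, 95% interval -0.16 to 0.20, adjusted p = 0.914). Col20a1 differed by 0.18, Col12a1 by -0.145, Col19a1 by -0.08 and Col16a1 by -0.01, with adjusted p from 0.449 to 0.943. Of the FACITs below the minimum, Col9a1 (0.24) was higher in each NL-G-F•Mutyh array than in any wild-type array, and Col22a1 (0.10) and Col14a1 (0.08) overlapped. NL-G-F•Mutyh replicates 2 and 3 had equal values for Col9a1, and the share of such separate groups below the minimum was not counted. The remaining genes were Col26a1 (-0.05), and Col10a1 (0.10) and Col28a1 (0.13) below the minimum. In the RefSeq annotation, Col9a2 lies 4.22 Mb, Col8a2 9.47 Mb, Col16a1 13.2 Mb, Col27a1 53.5 Mb and Col15a1 69.5 Mb from Mutyh on chromosome 4. Col8a1 lies 27.2 Mb from App on chromosome 16. The part of DNA linked to the altered alleles was not tested.

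The widest spread between mice was found for Col8a1, which encodes a chain of the network-forming type VIII collagen. It had 6.46, 5.54 and 6.54 in the NL-G-F•Mutyh arrays and 4.91, 6.01 and 6.39 in the wild-type arrays. The mean was 6.18 ± 0.56 in NL-G-F•Mutyh mice and 5.77 ± 0.77 in wild-type mice (SD, n = 3 each), and the difference of 0.41 (SE 0.42, 95% interval -0.60 to 1.42, adjusted p = 0.690) was -0.018 without wild-type replicate 1. Col9a3 and Col8a2 were added after their values were seen. Col9a3 had 6.67, 6.37 and 6.73 in the NL-G-F•Mutyh arrays and 6.06, 6.34 and 6.97 in the wild-type arrays (difference 0.13, SE 0.23, adjusted p = 0.823), and Col8a2 had 5.89, 6.07 and 5.67 in the NL-G-F•Mutyh arrays and 5.53, 6.08 and 6.27 in the wild-type arrays (difference -0.08, SE 0.20, adjusted p = 0.883).

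Markers of the choroid plexus, which borders the hippocampus, spread in a like manner. Of 9 listed, 7 were measured, and none was past the threshold (smallest p for Otx2, difference 0.56, adjusted p = 0.640). Ttr, the carrier protein of thyroxine and the defining plexus transcript, was also given after its values were seen and had 13.47, 12.51 and 13.33 in the NL-G-F•Mutyh arrays and 11.56, 13.34 and 13.55 in the wild-type arrays. The mean of the 7 markers, relative to each gene's own mean, was 0.49, -0.67 and 0.38 in the NL-G-F•Mutyh arrays and -1.11, 0.17 and 0.74 in the wild-type arrays. For Col8a1 and Col9a3, as for the plexus markers, replicate 2 was the lowest of the NL-G-F•Mutyh arrays, replicate 1 the lowest and replicate 3 the highest of the wild-type arrays. In all, 6 of the 44 collagen genes had these lowest and highest arrays, Col4a3, Col4a4, Col7a1 and Col10a1 being the others. For Col4a4 and Col7a1, NL-G-F•Mutyh replicate 2 was lowest only as a tie with another array. The share of all transcript clusters with this order was not counted. The mean of the fibroblast and meninges markers described below also had these lowest and highest arrays. Col8a2 had this order among wild-type arrays but not among NL-G-F•Mutyh arrays. Amounts of plexus tissue and amounts of transcript per cell cannot be told apart in bulk tissue, and the part of plexus tissue in these values was not tested.

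**Figure D4:**
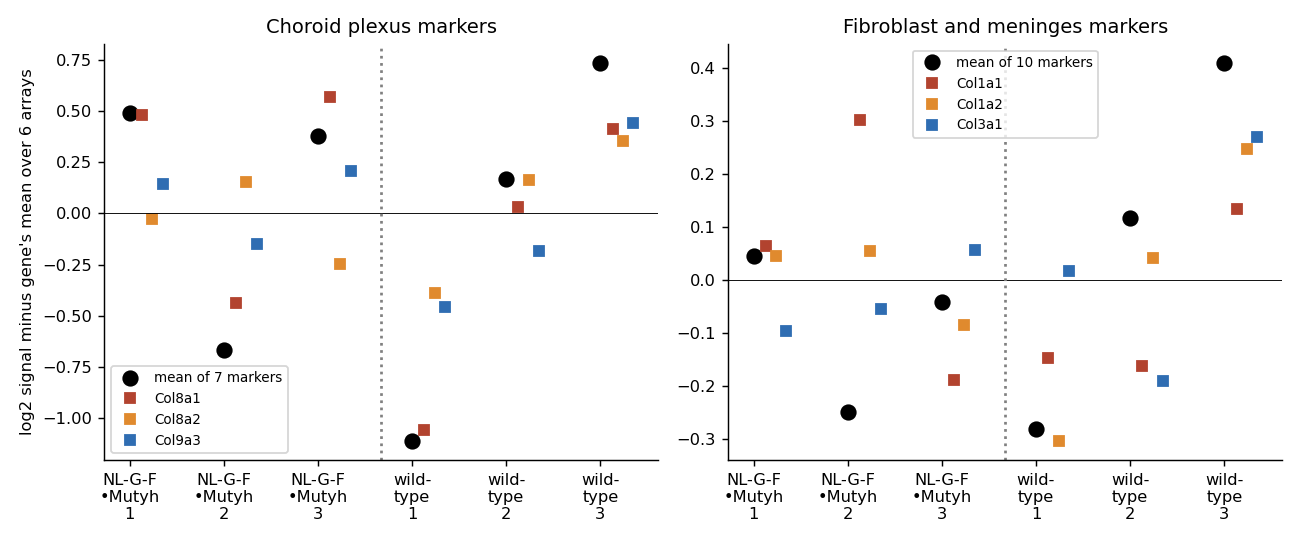
Log2 signal minus the gene's mean over the 6 arrays (vertical axis, a separate range in each panel) in each NL-G-F•Mutyh and wild-type array, for the mean of 7 choroid plexus markers with Col8a1, Col8a2 and Col9a3 (left), and the mean of 10 fibroblast and meninges markers with Col1a1, Col1a2 and Col3a1 (right). The plexus marker mean lies between -1.11 and 0.74, and within each group its lowest array (NL-G-F•Mutyh replicate 2, wild-type replicate 1) is also the lowest for Col8a1 and Col9a3.

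Markers of the other tissues that make collagen did not pass the threshold either. The mean of 10 fibroblast and meninges markers was 0.05, -0.25 and -0.04 in the NL-G-F•Mutyh arrays and -0.28, 0.12 and 0.41 in the wild-type arrays, and 8 of the 9 tested lay below wild-type (median -0.10, smallest p for Pdgfra with an adjusted p of 0.507). Col1a2 shared with the mean of these markers the lowest value in wild-type replicate 1 and the highest in wild-type replicate 3. Not every marker had this order, as Dcn, with the largest difference (-0.665), and Pdgfra did not. Among the NL-G-F•Mutyh arrays, however, replicate 2 was the highest for Col1a2 and the lowest for the marker mean. Col1a1 and Col3a1 were lowest in wild-type replicate 2. The mean of 9 markers of pericytes and smooth muscle differed by 0.03 ± 0.06 (smallest p for Acta2, adjusted p = 0.588) and that of 10 endothelial markers by -0.05 ± 0.10 (SE over arrays). Among the endothelial markers, Cldn5, of the tight junction, had the smallest p (difference -0.43, SE 0.13, adjusted p = 0.274). Of 6 markers of the thalamus, a neighboring region, 1 lay above wild-type and 5 below (median -0.07). The 1 above, Prkcd, was higher at an unadjusted p under 0.05 (difference 0.23, adjusted p = 0.311), against 8.88% of all tested transcript clusters. Of 5 interneuron markers, none had an unadjusted p under 0.05 (smallest p for Pvalb, adjusted p = 0.521). The part of tissue composition in the collagen values was not tested.

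The arrays of NL-G-F•Mutyh mice also held many equal values. For 12 of the 44 collagen genes (27.3%), at least 2 NL-G-F•Mutyh arrays had the same deposited value to the last decimal, among them Col4a1, Col6a6, Col7a1 and Col11a2, and for Col15a1 all 3 did. No collagen gene had such a tie among wild-type arrays. Over all transcript clusters, the share with a tie was 11.7% in NL-G-F•Mutyh arrays and 0.295% in wild-type arrays. The median SD of the 44 collagen genes was 0.076 in NL-G-F•Mutyh mice and 0.125 in wild-type mice, and the SD was larger in wild-type mice for 29 of them (65.9%), against 60.2% of all transcript clusters, whose median SD was 0.12 in NL-G-F•Mutyh mice and 0.149 in wild-type mice. The source of the equal values was not tested. Intervals and p-values of genes with ties rest on a spread that includes them, and so do the counts of groups that did not overlap. Whether the arrays of both groups were processed in 1 run is not given in the sources used here, so genotype and separate processing cannot be told apart in any of the differences.

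None of the genes listed for acting on or binding collagens passed the threshold. Of 30 genes of collagen synthesis and cross-linking, 27 were measured and 25 tested, and none had an unadjusted p under 0.05 in either direction (median difference 0.03). P4ha2, a subunit of prolyl 4-hydroxylase, had the smallest p of them, with 5.73 ± 0.19 in NL-G-F•Mutyh mice and 5.99 ± 0.09 in wild-type mice (SD, n = 3 each; adjusted p = 0.374). Of 15 partners in the basement membrane, such as laminins and nidogens, 13 were tested and none had an unadjusted p under 0.05 (median -0.01); the smallest was that of the laminin gene Lama5 (difference 0.21, SE 0.12, adjusted p = 0.488). Of 15 matrix proteins that bind collagen, 13 were tested, 1 was lower at an unadjusted p under 0.05 (4.75% of all tested transcript clusters) and none higher. This was Tnc, for tenascin C, at 5.42 ± 0.33 in NL-G-F•Mutyh mice and 5.95 ± 0.05 in wild-type mice (SD, n = 3 each; adjusted p = 0.268), which met the minimum in wild-type mice alone.

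Of 11 collagen receptors, 8 were tested and 1 was higher at an unadjusted p under 0.05, a share near that of all tested transcript clusters (8.88%). Lair1, an inhibitory receptor of leukocytes that binds collagen, had 7.36, 7.25 and 7.11 in the NL-G-F•Mutyh arrays and 6.81, 6.70 and 6.53 in the wild-type arrays. The groups were separate by more than the SD of either (0.13 in NL-G-F•Mutyh mice and 0.14 in wild-type mice). The NL-G-F•Mutyh mean was 147% of the wild-type mean, a difference of 0.56 (SE 0.10), which did not pass after adjustment (adjusted p = 0.179). The mean of 4 microglial markers was 0.16, 0.19 and 0.20 in the NL-G-F•Mutyh arrays and -0.14, -0.18 and -0.23 in the wild-type arrays. Of the 4, the lysosomal gene Cd68 passed the threshold (difference 0.85, adjusted p = 0.017), Csf1r (0.31, adjusted p = 0.183) and P2ry12 (0.31, adjusted p = 0.310) had separate groups but did not pass, and Cx3cr1 overlapped (0.004, adjusted p = 0.984). Gfap, the astrocyte filament gene, differed by 0.68 (adjusted p = 0.0857). The part of the number of microglia in the Lair1 signal was not tested.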

How the data were processed

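RNA of the hippocampus was hybridised by the authors to GeneChip Mouse Gene 2.0 ST arrays, 1 per mouse, and the array files were entered into Transcriptome Analysis Console 4.0. The deposited values are log2 signals per transcript cluster, and they were used as deposited. How the signals were summarized and normalized, and on which genome build the probes were annotated, is not given in the sources used here. Genes were named from the platform annotation: 23521 transcript clusters carried 1 symbol, 1820 several and 16004 none, and those with several were not named. No per-sample column was left out.

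Following the intensity filter of the study's methods, 21159 transcript clusters were tested, those whose group mean reached an intensity of 50 (log2 5.64) in at least 1 group. A 2-group model was fitted to the 6 arrays in limma 3.58.1 (R 4.3.3, lmFit and eBayes, two-sided), with Benjamini-Hochberg adjustment over everything tested. Standard errors and 95% intervals of genes are limma's moderated values, while those of class means come from the 3 array means of each group. Percentages of wild-type are 2 to the power of the difference. The script was tested on simulated data, in which 76 of 100 changes of log2 1 and 1 of 100 changes of log2 0.3 were recovered. Given array by array are genes with an unadjusted p under 0.05, the gene of each type with the highest mean or the largest SD, and collagens with known roles in vessel, meninges and plaque; of other lists, genes with an unadjusted p under 0.01 and the smallest p. Genes outside this rule are named as chosen after their values were seen. The collagen genes and all lists were chosen with earlier results of these data known. The labels call the arrays biological replicates, and their number limits the precision.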

Additional observations from a re-analysis of the deposited data

How the results depend on the processing

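No collagen gene passed an adjusted p under 0.05 in any of the 17 alternatives tried, which changed the intensity minimum, the scaling, the moderation, the array weights or the choice of transcript cluster, added the replicate number as a block, left out 1 array, or (added after the data were seen) dropped transcript clusters with tied values. Of 283 pairs of a named gene and an alternative, 265 kept their direction and 18 did not. Col4a2 with array weights, whose difference rounded to 0, is counted among those kept. Col6a2 stayed lower with an unadjusted p under 0.05 in all 17 (difference -0.39 to -0.26, lowest adjusted p 0.183).

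At an unadjusted p under 0.05, the count of higher collagen genes (0 as reported) was 1 without a minimum (Col9a1), 3 with array weights (Col4a5, Col11a2 and Col20a1) and 0 to 2 with 1 array left out (2 without wild-type replicate 1, Col11a2 and Col20a1, and 1 without wild-type replicate 3, Col9a3). The count of lower genes (1 as reported) was 2 without a minimum (Col5a2 beside Col6a2), 2 after quantile normalization, centring on array medians and array weights (Col5a1), 2 with all probe groups of each gene averaged (Col6a1), and 1 to 2 with 1 array left out (2 without wild-type replicate 1, with Col5a1, or replicate 3, with Col23a1). The fibrillar mean difference was -0.029 after centring on array medians and 0.003 to 0.052 with 1 array left out. With 1 array left out, Col4a5 ranged from 0.13 (without NL-G-F•Mutyh replicate 1) to 0.281, and Col7a1 from -0.116 to -0.063 (without wild-type replicate 3). The cause of these shifts was not tested.

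Differences that changed sign were those of Col1a2 (-0.027 after quantile normalization, -0.039 after centring on array medians, -0.003 with array weights), Col8a1 (-0.041 with array weights) and Col9a2 (-0.025 after centring on array medians), and with 1 array left out those of Col1a1 (-0.003 to 0.242), Col1a2 (-0.139 to 0.136), Col3a1 (-0.176 to 0.054), Col4a1 (-0.019 to 0.11), Col4a2 (-0.144 to 0.048), Col8a1 (-0.018 to 0.731), Col8a2 (-0.3 to 0.073), Col9a2 (-0.02 to 0.059) and Col9a3 (-0.063 to 0.389).

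Over all transcript clusters, the split of unadjusted calls moved with the scaling, from 1878 higher and 1005 lower as deposited to 1402 and 1380 after quantile normalization and 1032 and 1598 after centring on array medians. Calls after adjustment were 13 as reported, 42 with array weights, 8 with the minimum required in both groups, 2 to 3 with 1 array left out and 2 with the replicate block. Deviations of arrays with the same replicate number correlated at -0.10, 0.02 and -0.06, so these arrays share a number and were not treated as pairs. Under the replicate block, 0 collagen genes passed after adjustment and Col6a2 remained the 1 lower gene at an unadjusted p under 0.05.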
